A study of Rattus norvegicus with 8 samples.

Results

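The genes described here are the 3 peroxisome proliferator-activated receptors (Pparg, Ppara and Ppard) and 7 genes through which cells take up, carry, store or burn fat (Cd36, Lpl, Fabp4, Adipoq, Angptl4, Cpt1a and Pdk4). They were chosen by name, from the gene name that the array files give each probe, and are 10 of 35536 genes or named transcripts on the array. Adipoq and Fabp4, which mark adipocytes, are kept apart from the other 8 genes. The 10 genes had 11 probes, because Lpl had 2, and 5 of the probes were printed as 10 spots on every array.

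All 8 animals were male heterozygous TRAP rats of strain SD, whose prostate epithelium expresses the SV40 T antigen under the probasin promoter and forms adenocarcinoma. The 4 control rats had basal diet and tap water, and the 4 telmisartan rats had the drug in their water for 12 weeks, from an age of 3 weeks. The ventral prostate was taken at 15 weeks, and its whole-tissue RNA was labelled with Cy5 on 1 array per rat, against normal ventral prostate of male F344 rats aged 6 weeks in Cy3. The treated rats' label names both 2 and 10 mg/kg per day, while the series' design text says that RNA of the 10 mg/kg group was used. Dyes were not swapped, so every level below is a log2 ratio of TRAP prostate over the reference, and it reflects the transgene together with strain, age and dye. Levels are therefore described without a test. Nothing in the labels says whether the RNA came from pooled animals, and the rats are taken as separate samples.

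The receptors are nuclear proteins that bind DNA as partners of the retinoid X receptors and switch on genes of fat metabolism when a fatty acid or a drug occupies them. PPARγ, the product of Pparg, drives the formation of adipocytes, while PPARα and PPARδ act mainly on genes of fatty acid oxidation. Telmisartan blocks the angiotensin II type 1 receptor and is also known as a partial agonist of PPARγ, which is why these genes are of interest in treated prostates. The prostate holds luminal epithelium, smooth muscle, vessels and immune cells, and a dissected gland can carry fat from the tissue around it.

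The probes on which the results turn are given here as the 60 bases printed on the array, 5′ to 3′ as listed in the files. They show which transcript was measured. As background, all 5 belong to the coding parts of their genes, and the Pparg probe to the part for the ligand-binding domain, which isoforms 1 and 2 share, so it does not separate them.
Pparg: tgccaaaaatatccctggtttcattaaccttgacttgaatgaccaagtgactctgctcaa
Cd36: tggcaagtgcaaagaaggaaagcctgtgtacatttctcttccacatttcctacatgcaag
Fabp4: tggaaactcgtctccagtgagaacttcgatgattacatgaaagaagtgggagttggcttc
Adipoq: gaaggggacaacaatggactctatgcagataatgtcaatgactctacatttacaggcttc
Angptl4: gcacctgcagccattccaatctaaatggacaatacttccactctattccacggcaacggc

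The share of gene spots well above background in Cy5 was 64.7% to 76.8% in control rats and 59.2% to 68.1% in telmisartan rats, and 8 of the 10 genes could be tested. A gene was tested where the TRAP channel of its probe was well above background in 4 or more of the 8 rats, a filter that leaves out genes low in TRAP prostate. Ppara and Pdk4 did not pass it. Control 103 and Telmisartan 302 stood apart from the other rats in several of the genes below, and the differences are given with and without them. The arrays lay on 2 slides with 2 rats of each group on each. Control arrays held other positions on the slide than telmisartan arrays, so position and treatment cannot be told apart.

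Among the receptors, Pparg was measured in every rat in both channels. Its log2 ratio was 0.013 in Control 102, -1.24 in Control 103, -0.10 in Control 104 and -0.28 in Control 106. Among the telmisartan rats it was -1.06 in 302, -0.69 in 303, -0.30 in 305 and -0.47 in 306. The groups overlapped, with Control 103 lowest and Control 102 highest of all 8 rats. The 10 spots of the probe within an array had a mean SD of 0.0968, and the reference channel had an SD of 0.10 over the arrays, against an SD of 0.57 over the control rats.

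Ppara, the receptor of fatty acid oxidation in liver, was dim. Its probe was well above background in Cy5 in 2 of 4 control rats and 0 of 4 telmisartan rats, and on 0 of 8 arrays in the reference channel, so no fold is given for it. Ppard, the most widely expressed of the receptors, was well above background in Cy5 in 4 control and 3 telmisartan rats and on 0 of 8 arrays in Cy3. Its log2 ratio was 0.22 in Control 102, -0.086 in Control 103, -0.018 in Control 104 and 0.43 in Control 106. With telmisartan it was 0.11 in 302, -0.0033 in 303, 0.28 in 305 and -0.23 in 306. Values of both signs occurred in each group, and because the reference was not well above background no fold over it is given.

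**Figure D1:**
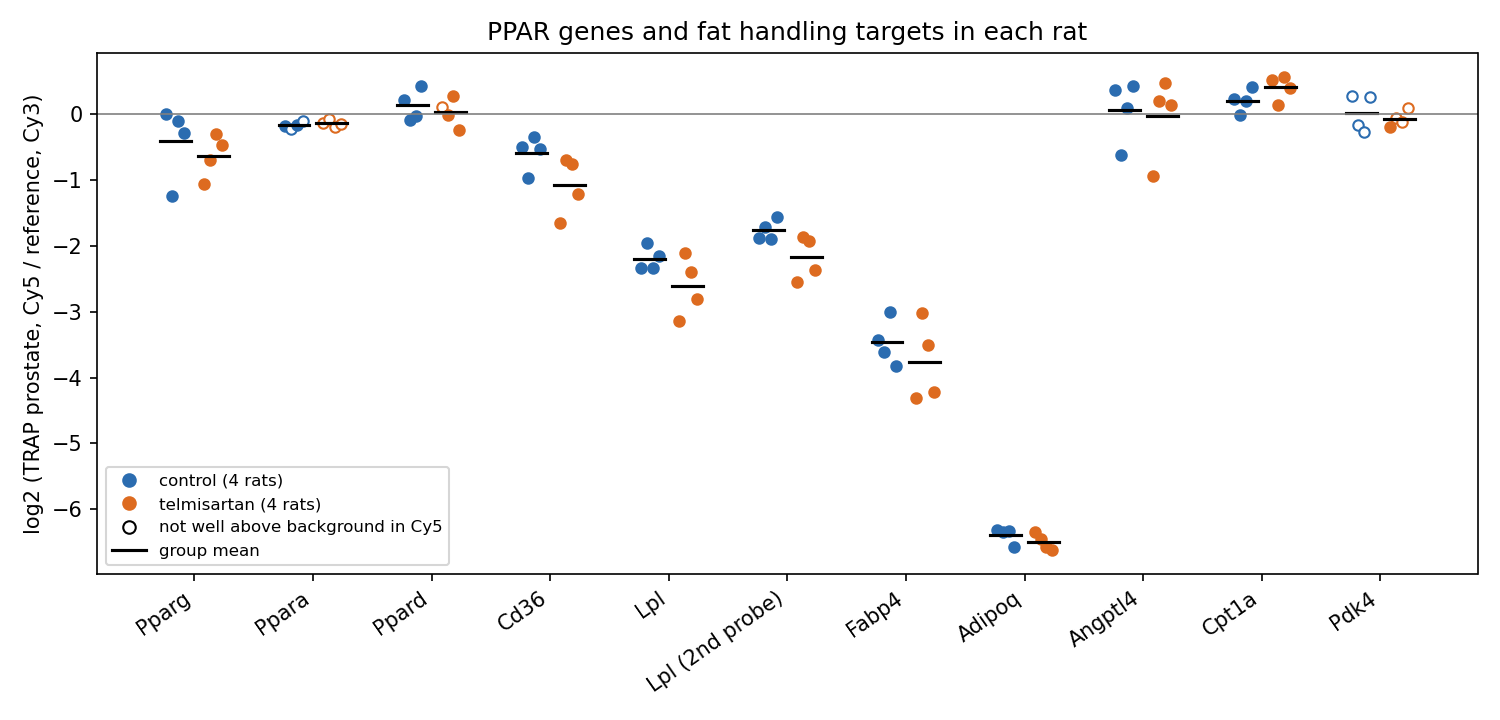
Log2 ratio of TRAP prostate (Cy5) over reference (Cy3) for the 11 probes, with 1 point per rat, control in blue and telmisartan in orange, open points where the probe was not well above background in Cy5, and bars at the group means. Adipoq, Fabp4 and Lpl lie below the reference in all 8 rats, and the groups overlap in every tested gene.

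Adipoq, which encodes the adipocyte hormone adiponectin, was the member farthest below the reference. Its log2 ratio was -6.31 in Control 102, -6.36 in Control 103, -6.33 in Control 104 and -6.57 in Control 106. In the telmisartan rats it was -6.35 in 302, -6.45 in 303, -6.57 in 305 and -6.62 in 306. All 8 values fell within a narrow band. The reference exceeded TRAP prostate 84.1-fold on the control mean and 90.5-fold on the telmisartan mean. The probe was well above background in Cy5 in all 8 rats. Its Cy5 intensity minus background was 132 to 198 over the 8 rats, against 54.8 to 81.9 for the dim Ppara probe. After normalization its Cy5 log2 intensity was 6.54 in control and 6.49 in telmisartan rats, close to that of the Ppara probe (6.56 and 6.57). The part that this low normalized signal has in the narrow band and in the folds was not tested. Of the 23188 genes tested, 5 had a lower control mean. The size depends on the background correction and on how the dyes were balanced. It was -6.39 as reported, -6.86 with an offset of 10 and -7.46 with the scanner software's ratio. With each array centred on its median in place of loess it was -5.36.

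Fabp4, the fatty acid carrier of adipocytes, which macrophages and capillary endothelium also express, was lower in TRAP prostate too. Its log2 ratio was -3.42 in Control 102, -3.61 in Control 103, -2.998 in Control 104 and -3.83 in Control 106. Treated rats were at -4.31 in 302, -3.02 in 303, -3.50 in 305 and -4.22 in 306. The reference exceeded TRAP prostate 11.04-fold in control rats and 13.6-fold in telmisartan rats, and the rats spread more than for Adipoq, with an SD of 0.35 against 0.12 in the controls.

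Adipocyte markers as a list were low beside the reference. Of 15 markers, 11 were tested, and 7 lay more than 2-fold below the reference in all 8 rats, where 3.29% of all tested genes did. These 7 include the members Adipoq, Fabp4 and Lpl. The 11 tested markers had a median control level of -1.96, against 0.06 over all genes. Resistin (Retn), an adipocyte hormone of rodents, stood at -4.53 ± 0.10 and adipsin (Cfd), a protease that fat secretes, at -2.28 ± 0.21 (mean log2 ratio ± SD, n = 4 control rats). Cidea, a lipid droplet protein, stood at 1.08 ± 0.32, above the reference. Hormone-sensitive lipase (Lipe) stood at -0.60 ± 0.06, from a dim probe. It was well above background in Cy5 in 3 control and 3 telmisartan rats and on 4 of 8 reference arrays. Of the 4 markers not tested, Plin1, Lep and Adrb3 were well above background on 0 of 8 arrays in either channel. Cidec, a lipid droplet protein of white fat, was so on 8 of 8 arrays in the reference and 3 of 8 in TRAP prostate. In whole tissue, fewer cells of a type and less RNA per cell cannot be told apart.

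Markers of another tissue were low against the reference too. All 10 tested skeletal muscle markers lay more than 2-fold below the reference in all 8 rats, with per-rat list means of -4.36 to -3.99 in control and -4.37 to -4.17 in telmisartan rats. The adipocyte list means were -2.23 to -2.02 and -2.34 to -1.97. Among the control rats, Control 104 was highest for both muscle (-3.99) and adipocyte markers (-2.02). Control 106 was lowest for both (-4.36 and -2.23). Among the treated rats, Telmisartan 302 was highest for muscle (-4.17) and lowest for adipocyte markers (-2.34). Telmisartan 303 was the reverse (-4.37 and -1.97). The part that such tissue in the reference samples has in the low levels of Adipoq and Fabp4 was not tested.

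**Figure D2:**
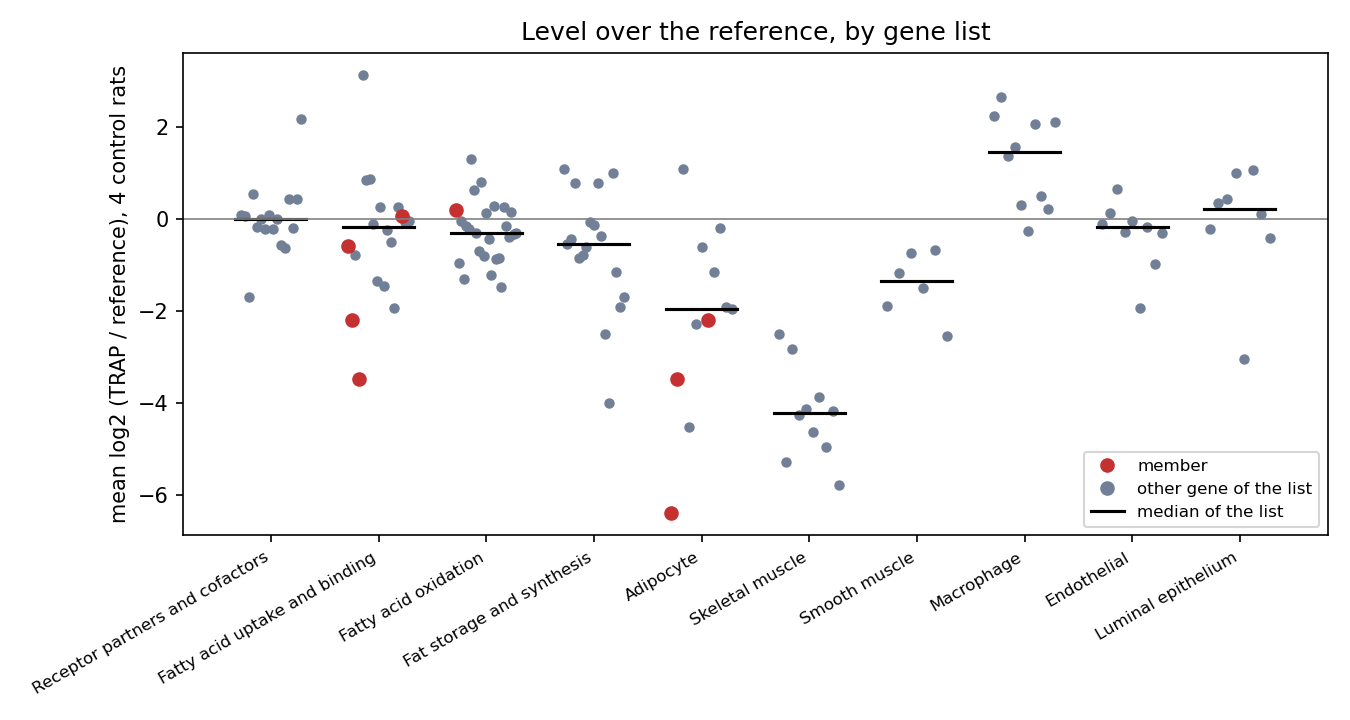
Mean log2 ratio of TRAP prostate over reference in the 4 control rats, with 1 point per tested gene by list, members in red and the list median as a bar. The adipocyte and skeletal muscle lists have medians of -1.96 and -4.21, and the macrophage list has a median of 1.47.

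Lpl, the lipase that frees fatty acids from circulating triglyceride, was the other member more than 2-fold below the reference in all 8 rats. By its brighter probe the log2 ratio was -2.34 in Control 102, -1.95 in Control 103, -2.34 in Control 104 and -2.15 in Control 106. The telmisartan rats were at -3.14 in 302, -2.10 in 303, -2.39 in 305 and -2.81 in 306. The groups overlapped, with 302 and 306 lowest. The other probe gave means of -1.76 ± 0.16 and -2.17 ± 0.33 (SD, n = 4 each), the same order of the groups at a level closer to the reference. In all, 3 of the 8 tested members (Lpl, Fabp4 and Adipoq) lay more than 2-fold below the reference in all 4 control rats, where 4.18% of all tested genes did, and 0 lay more than 2-fold above it, where 5.19% did (3.73% in all 8 rats).

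Cd36, the fatty acid translocase of adipocytes, muscle, endothelium and macrophages, lay nearer to the reference. Its log2 ratio was -0.50 in Control 102, -0.96 in Control 103, -0.34 in Control 104 and -0.52 in Control 106. With telmisartan it was -1.64 in 302, -0.70 in 303, -0.75 in 305 and -1.21 in 306. Control 103 lay among the telmisartan rats, so the groups overlapped. The reference channel hardly varied for this probe, with an SD of 0.0217 over the 8 arrays.

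Angptl4, a secreted inhibitor of lipoprotein lipase and a known target of all 3 receptors, had the largest SD within groups of the 8 tested members. Its log2 ratio was 0.37 in Control 102, -0.61 in Control 103, 0.11 in Control 104 and 0.43 in Control 106. In the telmisartan rats it was -0.94 in 302, 0.20 in 303, 0.48 in 305 and 0.15 in 306. The 2 low rats were 1 of each group, and the other 6 shared 1 range.

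Of the genes of oxidation, Cpt1a, which brings long-chain fatty acids into mitochondria, was at 0.23 in Control 102, -0.011 in Control 103, 0.21 in Control 104 and 0.41 in Control 106. In the telmisartan rats its log2 ratio was 0.52 in 302, 0.15 in 303, 0.57 in 305 and 0.41 in 306. The telmisartan range began inside the control range and ended above it. Pdk4, the kinase that turns pyruvate away from oxidation, was well above background in Cy5 in 0 of 4 control and 1 of 4 telmisartan rats and on 0 of 8 reference arrays. Its normalized Cy5 log2 intensity was 6.29 ± 0.21 in control and 6.82 ± 0.26 in telmisartan rats, which was 0.52 higher. Most of these signals were not well above background, so no fold is given. The reference on the same arrays, which holds no treated RNA and was not well above background either, was 0.62 higher beside the telmisartan rats, and the mean log2 ratios of the 2 groups were 0.029 and -0.065.

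The level of a gene near the reference depends on how the dyes were balanced. Centring each array on its median in place of loess raised the median of all genes in the control rats from 0.06 to 0.67. Under it Cd36 stood at 0.63 in place of -0.58, Pparg at 0.05 in place of -0.40 and Ppard at -0.22 in place of 0.14. Adipoq (-5.36), Fabp4 (-2.26) and Lpl (-1.26) stayed below the reference, and Cpt1a stayed above it at 1.41. No direction against the reference is therefore given for Pparg, Ppard, Cd36 or Angptl4.

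The comparison the study was designed for is telmisartan against control, and no member differed after adjustment. In the limma fit with Benjamini-Hochberg adjustment over 23188 genes, 0 of the 8 tested members passed 0.05, and 0% of all genes passed in either direction. By the probe that stands for each gene, 1 member, Cd36, had an unadjusted p under 0.05, on the lower side. The other probe of Lpl was under it too in the fit over probes (limma unadjusted p = 0.0304). Of all genes 4.82% reach that mark, 2.07% lower and 2.74% higher. The difference was below 0 in 7 of the 8 members, where 50.6% of all genes lie below 0, and 0 members had groups that did not overlap, where 2.73% of all genes had none (1.5% higher and 1.23% lower).

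Cd36 was 0.49 lower on the log2 scale in telmisartan rats (-0.58 ± 0.27 against -1.08 ± 0.44, SD, n = 4 each; SE 0.22, 95% interval -0.98 to -0.0085, limma unadjusted p = 0.0468, adjusted p = 0.982). The difference was -0.44 on slide 1 and -0.55 on slide 2. It was -0.31 without Telmisartan 302, -0.62 without Control 103 and -0.43 without both.

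The Lpl difference was -0.41 (SE 0.21, 95% interval -0.88 to 0.05, limma unadjusted p = 0.0737, adjusted p = 0.982). Its other probe gave -0.41 as well in the fit over probes (SE 0.16, limma unadjusted p = 0.0304, adjusted p = 0.997). By the brighter probe the Lpl difference was -0.24 without Telmisartan 302 and -0.16 without both rats. Pparg differed by -0.23 (SE 0.27, 95% interval -0.83 to 0.37, limma adjusted p = 0.985), by -0.08 without Telmisartan 302, by -0.51 without Control 103 and by -0.36 without both. The intervals of both genes include 0. That of Lpl reaches down to -0.88 but up only to 0.05, and that of Pparg runs from -0.83 to 0.37.

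The adipocyte genes showed no difference that passed. Fabp4 differed by -0.30 (SE 0.29, 95% interval -0.94 to 0.34, limma adjusted p = 0.982), by -0.12 without Telmisartan 302 and by -0.17 without both rats. Adipoq differed by -0.11 with the narrowest interval of the members (SE 0.10, -0.34 to 0.13, limma adjusted p = 0.982), and by -0.14 without both rats. Its TRAP signal was low, and the part of this in the narrow interval was not tested. Telmisartan 302, lowest of the 8 rats for Fabp4, Lpl, Cd36 and Angptl4, was the highest treated rat for Adipoq, at -6.35.

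The last tested members gave 1 difference above 0. Cpt1a differed by 0.20 (SE 0.13, 95% interval -0.08 to 0.49, limma adjusted p = 0.982), and by 0.09 without the 2 rats. Ppard differed by -0.10 (SE 0.15, limma adjusted p = 0.990) and Angptl4 by -0.10 (SE 0.32, limma adjusted p = 0.997). Without both rats Ppard differed by -0.20 and Angptl4 by -0.02. The Ppard difference ranged from -0.18 to -7.7e-05 with each rat left out, the latter without Control 106, and turned to 0.22 with the scanner software's ratio. The sign of Angptl4 turned to 0.21 without Telmisartan 302.

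**Figure D3:**
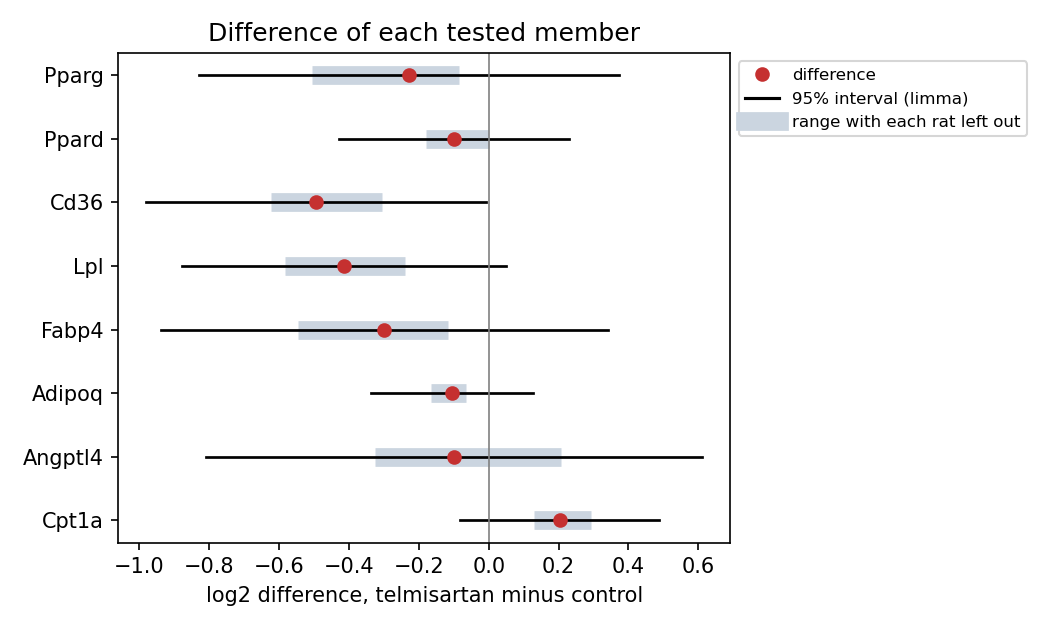
Log2 difference, telmisartan minus control, of the 8 tested members as red points, with the 95% interval of the limma fit as a black line and the range with each rat left out as a grey bar. The interval of Cd36 ends at -0.0085, and those of the other 7 members include 0.

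Genes that work with the members were read from lists of their pathways, in which 0 genes passed the test. Of 17 receptor partners and cofactors, 16 were tested, 8 above and 8 below 0, with a median difference of -0.02 against -0.002 over all genes. Rxra, the common partner of the receptors, differed by -0.05 (SE 0.12), Rxrg by 0.18 (SE 0.12) and Nr1h3, the liver X receptor alpha, by -0.45 (SE 0.37). Cebpa, a transcription factor of adipocyte formation, had the smallest unadjusted p of the list, with a difference of 0.56 (SE 0.18, limma adjusted p = 0.955) and no overlap of the groups. Its probe was well above background in Cy5 in 4 control and 2 telmisartan rats and on 1 of 8 reference arrays, and by channel it was 0.14 lower in Cy5 and 0.70 lower in Cy3 beside the telmisartan rats. Ppargc1a, the coactivator of mitochondrial genes, was well above background in 2 of 8 rats and was not tested.

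Of 21 genes of fatty acid uptake and binding, 18 were tested, 9 above and 9 below 0, with a median of -0.02. Fabp5, the carrier of epithelium and macrophages, was far above the reference at 3.14 ± 0.29 in control rats and differed by -0.63 (SE 0.36, limma adjusted p = 0.982). Telmisartan 302 was at 1.37 for it, against 2.42 to 3.36 in the other treated rats. Fabp3, the heart form, differed by -0.16 (SE 0.16), Acsl1, which activates fatty acids, by 0.09 (SE 0.21) and Vldlr, a lipoprotein receptor, by 0.05 (SE 0.13). Slc27a1, a fatty acid transporter, differed by -0.05 (SE 0.16) and Gpihbp1, which holds Lpl on capillaries, by 0.16 (SE 0.11).

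Of 29 genes of fatty acid oxidation, 25 were tested, 18 above and 7 below 0, with a median difference of 0.09. Cpt1b differed by 0.18 (SE 0.19), Cpt2 by 0.12 (SE 0.10), Acadl by 0.13 (SE 0.10), Acadm by -0.0038 (SE 0.18) and Ucp2 by 0.07 (SE 0.14). The first 4 carry or oxidise fatty acids in mitochondria, and Ucp2 is an uncoupling protein. Ucp3, its muscle relative, was well above background in Cy5 in 2 of 8 rats and in Cy3 on 8 of 8 arrays.

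Of 25 genes of fat storage and synthesis, 17 were tested, 11 above and 6 below 0, with a median of 0.06. Dgat1, which makes triglyceride, had the smallest unadjusted p at a difference of 0.26 (SE 0.11, limma unadjusted p = 0.0411, adjusted p = 0.982). Fasn, the fatty acid synthase, differed by -0.03 (SE 0.13) and Scd, the stearoyl-CoA desaturase, by 0.06 (SE 0.16). Plin2, the lipid droplet coat protein, was not matched on the array and is not analysed here.

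The adipocyte list had 5 tested genes above and 6 below 0, with a median of -0.07. Cfd differed by -0.63 (SE 0.21, limma unadjusted p = 0.0145, adjusted p = 0.982), with Telmisartan 302 at -3.43 and the groups overlapping at Control 103 (-2.55) and Telmisartan 305 (-2.38). Retn differed by -0.07 (SE 0.10), and Lipe by 0.06 (SE 0.09).

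**Figure D4:**
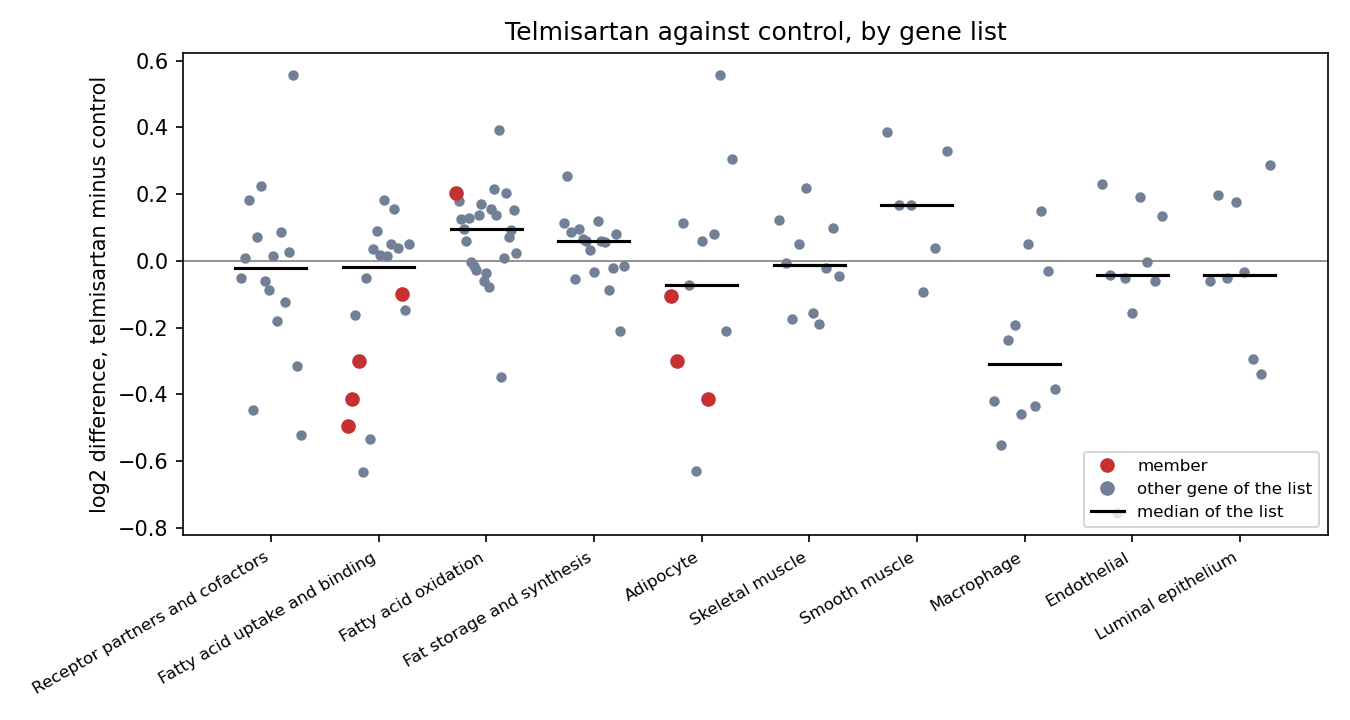
Log2 difference, telmisartan minus control, with 1 point per tested gene by list, members in red and the list median as a bar. Pathway medians lie between -0.02 and 0.09, and the macrophage markers have a median of -0.31.

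Macrophage markers moved beside some members. Of 11 markers, 10 were tested, 2 above and 8 below 0, with a median difference of -0.31, and 0 passed. The mean of the list was 1.39 in Control 102, 0.92 in Control 103, 1.28 in Control 104 and 1.53 in Control 106. It was 0.35 in Telmisartan 302, 1.37 in 303, 1.43 in 305 and 0.97 in 306. The lowest rats were Telmisartan 302 and Control 103, which were also the 2 lowest for Pparg and Angptl4. The mean of the endothelial markers was lowest in the same 2 rats. It was -0.598 in Control 103 and -0.591 in Telmisartan 302, against -0.427 to -0.159 in the other rats. Lpl was instead highest in Control 103, and the 2 lowest rats for Cd36, Lpl and Fabp4 were Telmisartan 302 and 306. Macrophages express Pparg, Cd36, Fabp4 and Lpl, and endothelium expresses Cd36 and Fabp4. The part of macrophage and endothelial content in the values of these genes was not tested.

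The genes most like Pparg over the 8 arrays were Cd72, Ms4a6a and Srpk3, chosen from 11405 genes with a symbol by Pearson's r. Cd72, a surface protein of B cells and macrophages, had r = 0.994, or 0.987 without Control 103 and Telmisartan 302. Ms4a6a, a membrane protein of myeloid cells, had r = 0.987, or 0.958 without those rats, and Srpk3, a kinase known from muscle, had r = 0.987, or 0.955. For Adipoq they were Zbtb38 (r = 0.976), Secisbp2 (r = 0.973) and Ddx21 (r = 0.962). Being the highest of so many, these values are a description, and all of them share the same 8 arrays and reference.

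**Figure D5:**
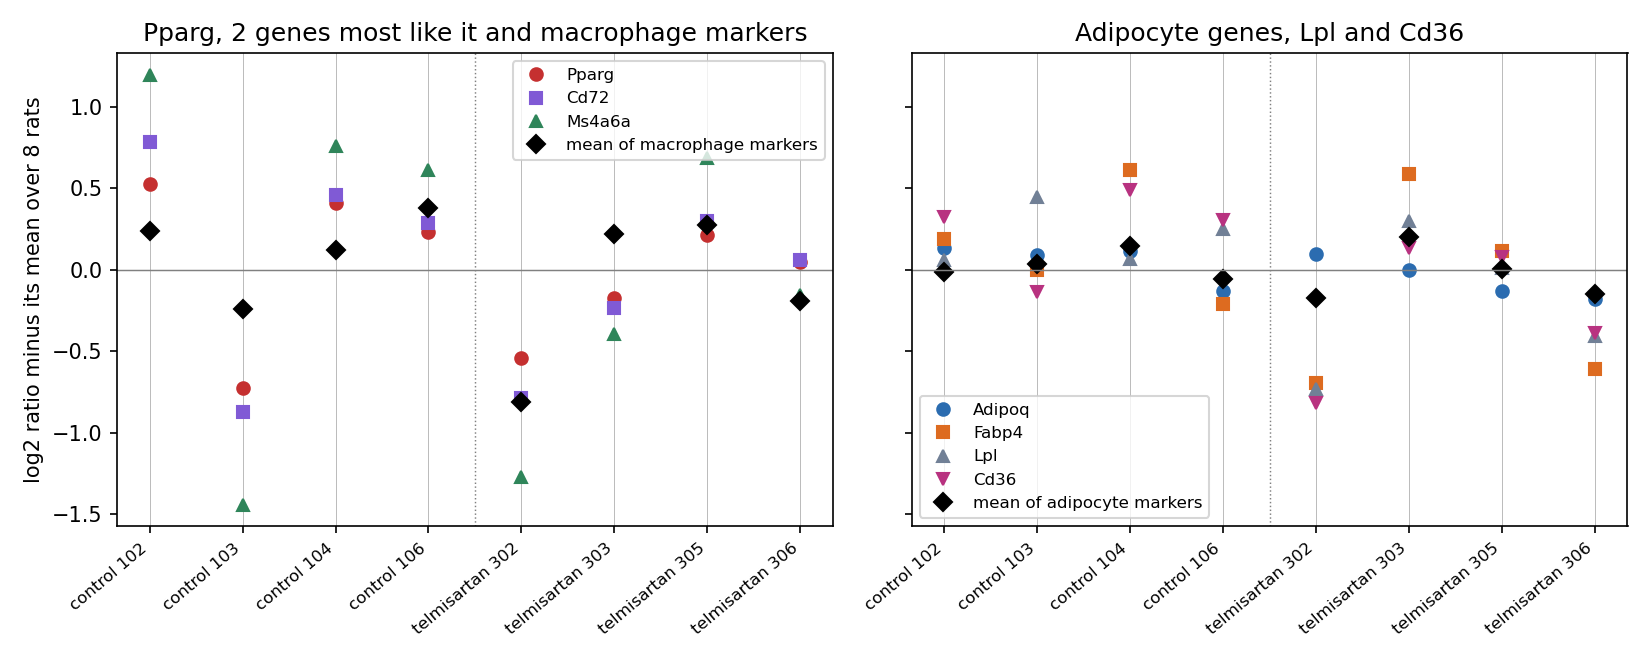
Log2 ratio of each gene or list minus its own mean over the 8 rats, with 1 point per rat. On the left, Pparg, Cd72 and Ms4a6a are lowest in Control 103 and Telmisartan 302. On the right, Fabp4, Lpl and Cd36 are lowest in Telmisartan 302 and Adipoq is not.

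The members did not all follow 1 order of the rats. Across the 8 arrays Cd36 correlated with Fabp4 at r = 0.805, with Lpl at 0.736, with Angptl4 at 0.743 and with Pparg at 0.713. Angptl4 correlated with Pparg at 0.842. Adipoq correlated with Fabp4 at 0.347, with Cd36 at 0.075, with Lpl at 0.072 and with Ppard at -0.111. With Pparg it was at -0.167, with Angptl4 at -0.495 and with Cpt1a at -0.536. Cpt1a ranged from -0.678 with Lpl to 0.430 with Ppard. These are descriptions of 8 arrays that share a reference and include the 2 rats that stand apart.

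The promoters were searched for the element that the receptors bind, in RefSeq windows of assembly GRCr8 from 250 bases before to 50 after each start, on both strands. The direct repeat, which is 2 copies of AGGTCA with any 1 base between them, was in 0.0538% of 33469 windows. A looser form with any base in place of the T of both copies was in 0.415%, and the single copy AGGTCA, which the full repeat contains, in 16.2%. None of the 3 was in any of the 8 windows of 7 members, and Ppard, Lpl and Fabp4 had no window. No match says only that these letters are not in these windows.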

How the data were processed

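Ventral prostate RNA of 4 control and 4 telmisartan TRAP rats was measured on 8 Agilent 2-colour arrays, grouped by the titles in the labels. Per the file headers, the arrays were read with Agilent Feature Extraction 9.1. The deposited files give the mean intensity and median background intensity of each of 45018 spots in both channels, uncorrected, and a log10 ratio that the software had background-subtracted and dye-normalized, per the file headers. The deposited series values are log10 ratios too, with a median of 0 on every array. They were matched to the scanner ratios in file order, within 0.005, and used as an alternative.

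From the deposited intensity values, log2(Cy5/Cy3) was computed in limma 3.58.1 under R 4.3.3 with normexp at an offset of 50 and loess within arrays, control spots at weight 0. Outlier spots (0.149%) were left out, and spots of a probe were averaged. Probes whose Cy5 signal was well above background in 4 or more of the 8 rats, with a value on all 8, were tested (27207), and the brightest probe stood for a gene (23188 genes, 11406 with a symbol). Groups were compared with lmFit and eBayes, two-sided, group as the only term, adjusted by Benjamini-Hochberg over all genes at 0.05. The fit was tested on simulated data. The number of arrays limits the precision.

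Names came from the RefSeq genes of GRCr8 (10715 probes by accession, 5580 by symbol, 3729 by an older symbol, 20977 kept as in the file). Members and lists were chosen with earlier results of these data known. The genes named are the members, 28 fixed genes of their pathways, the gene of smallest unadjusted p in each pathway list, and the 3 genes most like Pparg and Adipoq. Of all these, 2 genes of the oxidation list are not reported here. Intensities by channel are given after loess and Aquantile. Alternatives covered background correction, normalization, channel, filter, probe choice, slide, variance model, array weights and each rat left out.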

Additional observations from a re-analysis of the deposited data

Results flagged for a closer look

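Adipoq in Control 106 was at -6.57, apart from the other control rats at -6.36 to -6.31, with a gap of 0.842 of the group's range, above Dixon's critical value for 4 samples. The mean of the endothelial markers in Control 103 was -0.598, apart from the other control rats at -0.278 to -0.213, with a gap of 0.830 of the range. Of 42 groups of 4 rats examined, chance alone would mark about 1 in 20.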

How the results depend on the processing

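The count of genes that passed was 0 in each direction as reported and under every alternative other than leaving out single rats, and 0 to 1 in each direction when each rat was left out in turn. The 1 gene higher came without Control 102 and the 1 gene lower without Telmisartan 303, and neither has a symbol. With array weights, 1320 genes higher and 1277 lower reached an unadjusted p under 0.05, against 636 and 481 as reported. With the Cy5 channel alone they were 766 and 314, and with median centring 603 and 312. Of the member differences, Ppard turned to 0.22 with the scanner software's ratio and to 0.22 with the deposited series values. Angptl4 turned to 0.050 on slide 2 alone, and ranged from -0.33 to 0.21 with each rat left out, turning above 0 without Control 102, Control 106 or Telmisartan 302. Pparg, Cd36, Lpl, Fabp4, Adipoq and Cpt1a kept their sign in all 23 settings run. Aquantile, the slide as a block, the variance model and the filter changes left these differences as reported, so those settings say nothing about the sign. With each rat left out, Ppard ranged from -0.18 to -7.7e-05, Pparg from -0.51 to -0.084, Cd36 from -0.62 to -0.31, Lpl from -0.58 to -0.24, Fabp4 from -0.55 to -0.12, Adipoq from -0.17 to -0.064 and Cpt1a from 0.13 to 0.29. Leaving out Control 103 and Telmisartan 302 together was chosen after seeing the data. No paired analysis was possible because the groups share no replicate numbers. Dim signal limits Ppara, Ppard and Pdk4, whose probes were well above background on 0 of 8 reference arrays. The normalized TRAP signal of Adipoq was low too, close to that of the dim Ppara probe. Before normalization the Adipoq signal was the higher of the 2 in every rat.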
